A study of Homo sapiens with 8 samples.

Results

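The interaction of the air–liquid (AL) stimulus with diclofenac (DCF) was examined gene by gene, to ask which genes answered the AL stimulus differently when the drug was present. For each gene it is the log2 fold change of AL_DCF over ST_DCF minus the log2 fold change of AL over ST, so that a negative value means a lower AL response with DCF and a positive value a higher one. All 8 libraries of the series entered, and 6 of the 17445 genes tested (0.0344%) were called at an adjusted p under 0.05. The table held 18430 genes in all. RNA was taken from HCE-T, an immortalised human corneal epithelial cell line, in 4 conditions of 2 libraries each: AL stimulus with 50 µM DCF (AL_DCF), static culture with 50 µM DCF (ST_DCF), AL stimulus without drug (AL) and static culture without drug (ST). Every group had grown for 7 days in the upper channel of the same kind of microfluidic device, in medium with serum, insulin, growth factor and dimethyl sulfoxide, before 24 h in its condition. The AL stimulus was a repeated cycle of air, liquid and a pause over the apical side of the cells, and DCF was put into the upper channel. A single cell line without tears, nerves or immune cells limits these groups as a model of the ocular surface. No drug vehicle is named for ST and AL in the sources used here, and the extraction note of the labels names myoblasts where all other labels name HCE-T.

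DCF is a non-steroidal anti-inflammatory drug that blocks the cyclooxygenases PTGS1 and PTGS2, which turn arachidonic acid into the precursor of the prostaglandins, and it is given as eye drops against ocular surface inflammation. The corneal epithelium meets air at each failure of the tear film, and it answers drying and shear with changes in its barrier, its mucins and its secreted cytokines. An interaction differs from a drug effect: a gene that DCF moves by the same factor with and without the AL stimulus has an interaction of 0.

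Totals lay between 32880479 and 46369412 counts per library, and the biological coefficient of variation was 9.48%. The groups did not vary alike. Between the 2 libraries of a group the mean chi-square per gene, which counting error alone puts near 1, was 24.1 in AL_DCF, 24.3 in ST_DCF, 8.93 in AL and 5.46 in ST, and the model uses 1 dispersion per gene for all 4 groups. Levels are given as CPM, read counts scaled to library size after TMM. Tests are edgeR's quasi-likelihood test in one model of the 4 groups, and p-values were adjusted by Benjamini-Hochberg across the 17445 genes. Permuting 2 against 2 libraries reaches no two-sided exact p under 0.333, so genes were tested in the joint model alone. Of 15 genes of corneal and surface epithelial identity, 13 were tested, with a summed level of 954 and 900.4 CPM in AL_DCF, 1521 and 1412 CPM in ST_DCF, 909.7 and 949.5 CPM in AL and 1297 and 1342 CPM in ST. KRT3 and KRT12, the keratin pair of mature corneal epithelium, were not analysed here. Of 20 markers of stromal, endothelial, immune, muscle and pigment cells, 11 were tested, and their summed level was 87.0 and 79.1 CPM in AL_DCF, 107 and 94.8 CPM in ST_DCF, 64.5 and 67.5 CPM in AL and 75.8 and 78.6 CPM in ST. By edgeR no gene of either list was called in the interaction. At an unadjusted p under 0.05, 4 of the 13 identity genes were lower (30.8%) and 1 higher (7.69%). Of the 11 other markers 3 were lower (27.3%) and 1 higher (9.09%). Over all genes 5.85% were lower and 5.41% higher. The median interactions were −0.174 and −0.575. The part of other cells in the results was not tested. A change in the share of cells cannot be told apart from a change in RNA per cell in such bulk samples.

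The 6 called genes all had a lower AL response with DCF, and none was called with a higher one. At an unadjusted p under 0.05 the background was 1020 genes lower (5.85%) and 943 genes higher (5.41%), and DESeq2 called 95 genes lower and 54 higher. DNAH3, H1-2 and H2BC21 encode an axonemal dynein heavy chain of motile cilia and flagella, the linker histone H1.2 and a core histone H2B. DHRS2 encodes a short-chain dehydrogenase that reduces carbonyl compounds, and LOC105372338 and LOC107986257 are uncharacterised long non-coding RNAs. The number of calls rested on single libraries. It was 51 without AL_DCF replicate 1, 189 without ST_DCF replicate 2, 3 without ST_DCF replicate 1, 2 without ST replicate 1 and 0 without AL replicate 2 or without ST replicate 2, where the genes at an unadjusted p under 0.05 were 599 lower and 467 higher in the first case and 823 lower and 634 higher in the second.

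DNAH3 (gene identifier 55567) spans 20933111 to 21159459 on chromosome 16 of GRCh38.p14. In RefSeq LDAF1 and LOC107984888 overlap it, and whether the counting used strand is not given in the sources used here. Its level was 18.4 and 15.5 CPM in AL_DCF, 36.2 and 28.9 CPM in ST_DCF, 49.0 and 45.7 CPM in AL and 28.6 and 26.9 CPM in ST. The AL response therefore ran in opposite directions. On the log2 scale DNAH3 lay 0.94 below ST_DCF in AL_DCF (−0.94, adjusted p = 0.000316) and 0.77 above ST in AL (adjusted p = 0.00125), and the libraries of the groups compared did not overlap on either side. The interaction was −1.71 (SE 0.175, 95% interval −2.10 to −1.33, adjusted p = 0.00455). Among 10 tested axonemal dynein heavy chain genes, DNAH3 was the one called. DNAH5 and DNAH1 had interactions of 1.40 (unadjusted p = 0.00828) and 0.58 (unadjusted p = 0.0146), and DNAH5 lay between 0.425 and 1.69 CPM in all libraries.

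H1-2 showed another pattern, an AL response that was present without DCF and not detected with it. Its level was 48.8 and 42.3 CPM in AL_DCF, 49.6 and 44.0 CPM in ST_DCF, 107 and 113 CPM in AL and 44.8 and 47.3 CPM in ST. Both AL libraries stood above the 6 others, which overlapped one another. The log2 fold change was −0.04 in AL_DCF over ST_DCF (adjusted p = 0.805) and 1.26 in AL over ST (adjusted p = 5.45e-06), and the interaction was −1.30 (SE 0.133, 95% interval −1.59 to −1.01, adjusted p = 0.00455). H2BC21 followed it at a lower level, with 13.1 and 13.7 CPM in AL_DCF, 16.6 and 14.6 CPM in ST_DCF, 29.1 and 33.2 CPM in AL and 15.8 and 15.3 CPM in ST. Its interaction was −1.22 (SE 0.162, 95% interval −1.58 to −0.87, adjusted p = 0.0323). H1-2 lies on chromosome 6 from 26055740 to 26056470 and H2BC21 on chromosome 1 from 149884459 to 149886682 of GRCh38.p14, with no other RefSeq gene overlapping either.

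DHRS2 was lower under the AL stimulus on both sides, and more so with DCF. It had 54.6 and 63.1 CPM in AL_DCF, 266 and 251 CPM in ST_DCF, 126 and 128 CPM in AL and 234 and 253 CPM in ST. On the linear scale AL_DCF held 0.228 of the ST_DCF level and AL 0.520 of the ST level. The interaction was −1.19 (SE 0.124, 95% interval −1.46 to −0.92, adjusted p = 0.00455). The gene lies on chromosome 14 from 23630115 to 23645639 of GRCh38.p14. Of 12 tested genes of the DHRS family it was the one called. DHRS3, a retinal reductase, had log2 fold changes of −2.24 in AL_DCF over ST_DCF (adjusted p = 2.62e-07) and −1.95 in AL over ST (adjusted p = 7.84e-07), with an interaction of −0.29 (95% interval −0.64 to 0.05).

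The 2 non-coding RNAs moved in opposite directions under the AL stimulus. LOC105372338, on chromosome 19 from 23549882 to 23558848, had 16.3 and 13.1 CPM in AL_DCF, 9.38 and 6.15 CPM in ST_DCF, 28.5 and 29.9 CPM in AL and 4.05 and 3.99 CPM in ST. It rose under the AL stimulus by a factor of 1.89 with DCF and 7.25 without it, and its interaction was −1.94 (SE 0.259, adjusted p = 0.0323). LOC107986257, for which no position was used here, had 1.68 and 1.60 CPM in AL_DCF, 9.06 and 8.18 CPM in ST_DCF, 3.67 and 4.00 CPM in AL and 5.86 and 5.79 CPM in ST. It fell under the AL stimulus to 0.190 of the ST_DCF level with DCF and to 0.657 of the ST level without it, and its interaction was −1.79 (SE 0.243, adjusted p = 0.0323). In the plot of the called genes by library, these patterns can be read side by side.

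**Figure D1:**
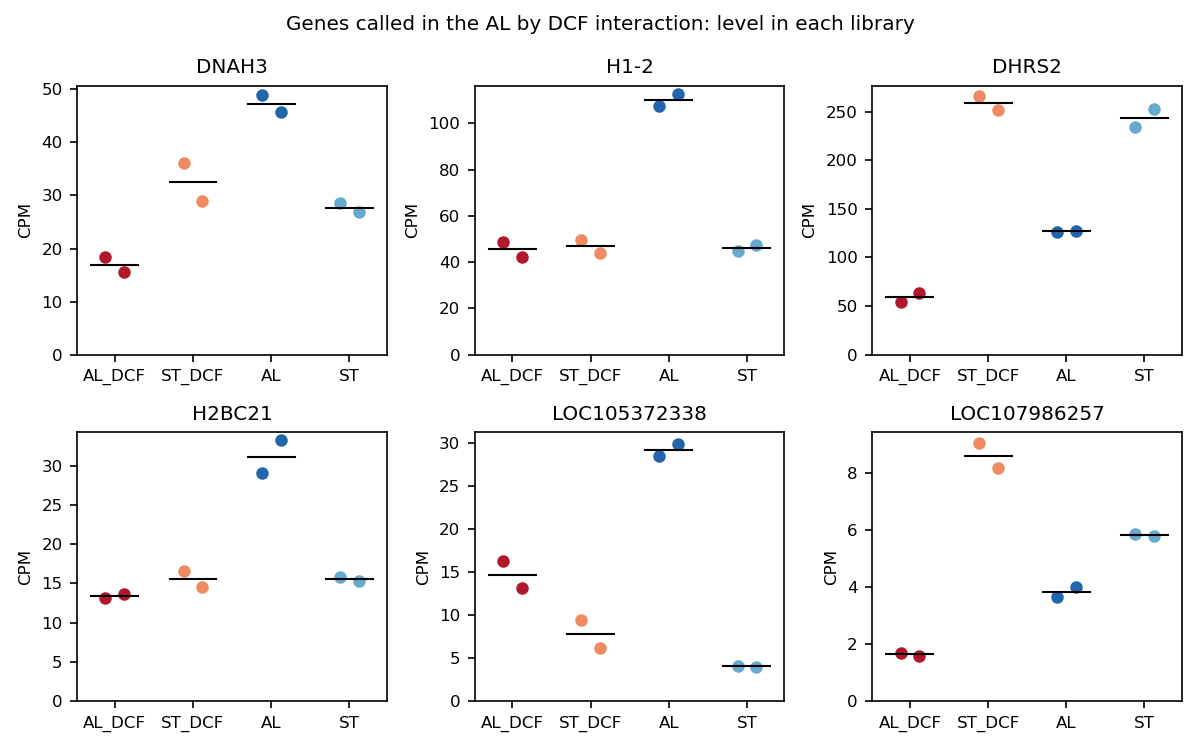
Level in CPM (vertical axes, starting at 0) of the 6 genes called in the interaction, in the 2 libraries each of AL_DCF, ST_DCF, AL and ST (points), with the group mean as a line. The 2 AL libraries of H1-2 at 107 and 113 CPM stand above the other 6, and DNAH3 is lowest in AL_DCF and highest in AL.

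The same interaction can be read from the drug side, as AL_DCF over AL minus ST_DCF over ST. All 6 genes were lower in AL_DCF than in AL, with log2 fold changes from −1.48 for DNAH3 (adjusted p = 0.000364) to −0.99 for LOC105372338 (adjusted p = 0.0325). Over all genes 62 were called in that comparison (0.355%), 18 higher (0.103%) and 44 lower (0.252%), and at an unadjusted p under 0.05 6.32% were higher and 6.24% lower. None of the 6 was called in ST_DCF against ST, where the log2 fold changes lay between 0.00 for H2BC21 (adjusted p = 0.995) and 0.95 for LOC105372338 (adjusted p = 0.299). In that static comparison 1 gene was called over the whole table (0.00573%), and at an unadjusted p under 0.05 1750 genes stood out, 5.53% higher and 4.51% lower. These comparisons share libraries with the interaction and are given as its parts.

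Just outside the threshold the list went on with histones. H2BC5 had 29.5 and 31.4 CPM in AL_DCF, 29.9 and 23.5 CPM in ST_DCF, 62.4 and 66.3 CPM in AL and 26.8 and 26.9 CPM in ST, with an interaction of −1.07 (adjusted p = 0.0614). H2BC12 had 105 and 130.0 CPM in AL_DCF, 101 and 107 CPM in ST_DCF, 269 and 297 CPM in AL and 124 and 132 CPM in ST, with an interaction of −0.97 (adjusted p = 0.0674). In both, the AL libraries stood above the 6 others. In RefSeq H4C9 overlaps H2BC12, and H2BC6-AS1 and LARP1P1 overlap H2BC5. LOC643201, a transcribed pseudogene of the centrosomal protein CEP192, followed with −1.76 (adjusted p = 0.0896), and as a pseudogene it may share reads with its parent.

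Replication-type histones are made in S phase from clusters of intronless genes on chromosomes 6 and 1, and their mRNAs mostly end in a conserved stem-loop in place of a poly(A) tail. The libraries were prepared with an mRNA kit, which selects poly(A), and the part of tail status in these values was not tested. Of 89 such genes listed after the values had been seen, 53 were in the table and 49 were tested. Their median interaction was −1.06, beside 0.01 over all genes tested, and 46 of the 49 lay below 0, as did 8547 of all 17445 genes. At an unadjusted p under 0.05, 29 of them were lower (59.2%, beside 5.85% of all genes) and 0 higher. H1-2 and H2BC21 were the 2 of the 49 called after adjustment, where 6 of all 17445 genes (0.0344%) were called. DESeq2 called 15 of the histone genes lower and 0 higher, where it called 95 lower and 54 higher over all genes. In edgeR the number of histone calls rested on single libraries, as it did over all genes. With 1 library left out, the histone median lay between −1.19 (without AL_DCF replicate 1) and −0.93 (without AL replicate 2). Added over the 49 genes, the level was 359 and 357 CPM in AL_DCF, 347 and 342 CPM in ST_DCF, 762 and 873 CPM in AL and 372 and 399 CPM in ST. Both AL libraries thus lay far above the others, and AL_DCF lay between ST_DCF and ST.

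In AL against ST 29 of the 49 histone genes rose and 0 fell, where 7.63% of all genes rose and 17.9% were called in either direction. The 29 numbered 13 without AL replicate 2, 16 without ST replicate 1 and 17 without ST replicate 2. In AL_DCF against ST_DCF 0 rose and H2AC8 fell, where 9.38% of all genes rose and 20.7% were called. The median log2 fold change was −0.04 in AL_DCF over ST_DCF and 0.95 in AL over ST. The 2 AL libraries lay above all 6 others in 38 of the 49 genes (77.6%), and in 7.76% of all genes tested. Among the 25 histone genes with an average log2 CPM above 1, this held for 25, with interactions from −1.49 to −0.35. That average takes in the AL libraries, so a gene high in AL passes the cut more easily. The share over all genes above the cut is not given here, and the 25 are a description only.

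**Figure D2:**
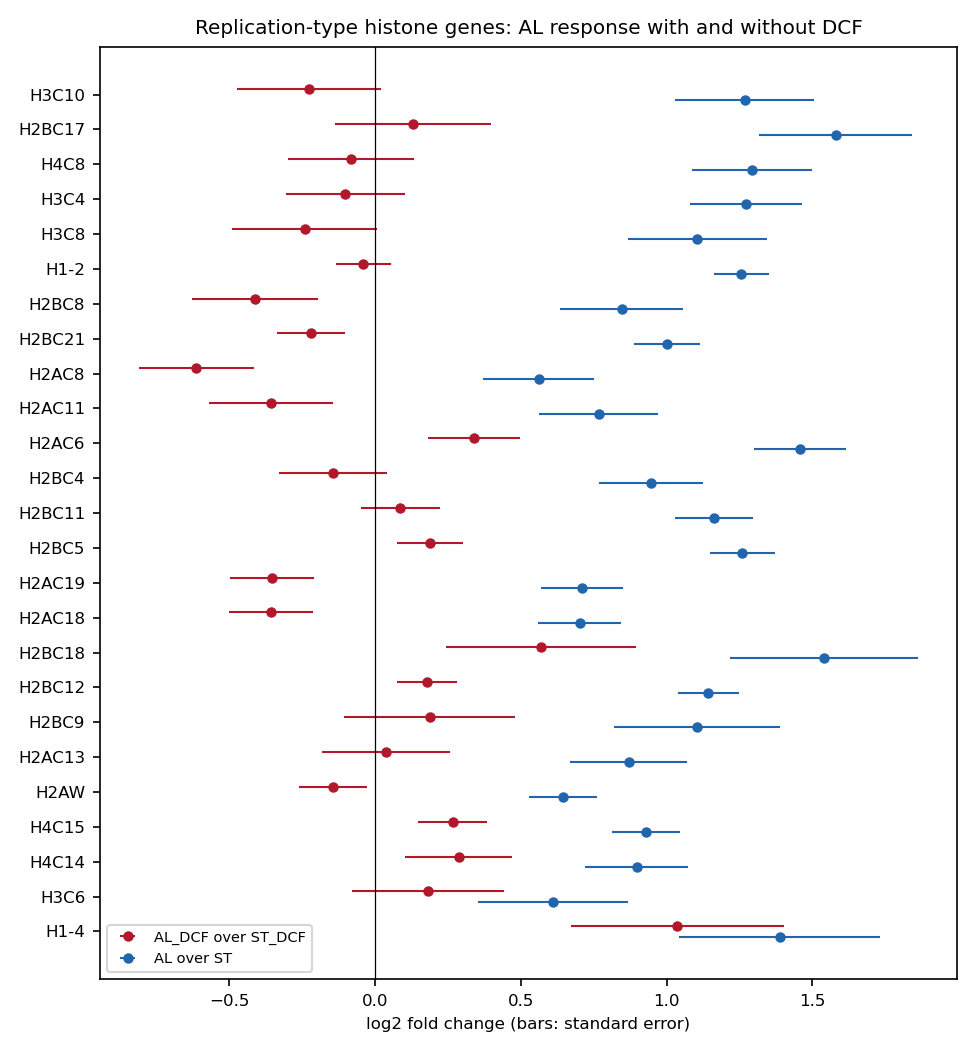
Log2 fold change of 25 replication-type histone genes with an average log2 CPM above 1 (horizontal axis, bars are standard errors) in AL_DCF over ST_DCF (red, upper point of each gene) and in AL over ST (blue, lower point). The blue points all lie right of 0 and to the right of the red ones, and H1-4, at the bottom, has the smallest gap, with 1.04 and 1.39.

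The median lay below 0 in all 5 histone families. The median interaction was −0.67 over 4 H1 genes, −0.93 over 12 H2A genes, −1.07 over 14 H2B genes, −1.37 over 9 H3 genes and −0.87 over 10 H4 genes. H3C4, which encodes a core histone H3, had 2.78 and 2.23 CPM in AL_DCF, 2.81 and 2.56 CPM in ST_DCF, 7.76 and 9.23 CPM in AL and 3.33 and 3.69 CPM in ST. Its interaction was −1.38 (adjusted p = 0.135). H4C8, which encodes histone H4, had an interaction of −1.38 (adjusted p = 0.171), and H2AC6, a histone H2A gene, one of −1.12 (adjusted p = 0.132). H2AC18 and H2AC19 are near-identical copies on chromosome 1 whose reads may have been split between them, so their interactions of −1.06 each count as uncertain. The 3 genes above 0 were H2AC7, H2BC6 and H1-5 with 1.49, 0.52 and 0.07, and none of their libraries exceeded 1.26 CPM.

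Replacement histones, which are made from polyadenylated mRNAs and are not confined to S phase, were listed for comparison after the values had been seen. Their 12 genes had a median interaction of −0.18, with 2 lower (16.7%, beside 5.85% of all genes) and 0 higher at an unadjusted p under 0.05. These 2 were CENPA, the centromeric histone H3, at −0.68 (unadjusted p = 0.000165) and H1-10 at −0.56 (unadjusted p = 0.00412). H3-3B and H2AZ1 lay at −0.01 and 0.06, with 95% intervals of −0.28 to 0.26 and −0.30 to 0.41.

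The upstream sequences of H1-2, H2BC21, H2BC12 and H2BC11 are printed because these genes shared a lower interaction, −1.08 (adjusted p = 0.122) for H2BC11, and because H1-2 carries other elements beside the CCAAT box than the H2B genes, which share theirs. Each is the 120 bases before the start site in RefSeq, GRCh38.p14, minus strand, 5′ to 3′, at chr6:26056471-26056590, chr1:149886683-149886802, chr6:27146859-27146978 and chr6:27132796-27132915, and capitals mark the octamer ATTTGCAT, the CCAAT box, the TATA box as TATAAA and the H1 element AAACACA on either strand, none of which overlap there.
H1-2: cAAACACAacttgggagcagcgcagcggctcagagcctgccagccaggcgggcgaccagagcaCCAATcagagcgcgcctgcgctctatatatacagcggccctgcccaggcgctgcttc
H2BC21: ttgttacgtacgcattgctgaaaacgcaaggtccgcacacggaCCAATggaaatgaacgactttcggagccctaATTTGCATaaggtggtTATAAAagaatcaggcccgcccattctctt
H2BC12: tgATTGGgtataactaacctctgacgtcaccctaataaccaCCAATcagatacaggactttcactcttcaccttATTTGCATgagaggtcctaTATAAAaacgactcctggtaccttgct
H2BC11: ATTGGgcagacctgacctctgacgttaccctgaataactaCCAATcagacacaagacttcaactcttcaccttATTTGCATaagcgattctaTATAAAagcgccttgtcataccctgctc

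ATTTGCAT is the octamer that the transcription factor POU2F1 reads in H2B promoters, and AAACACA is the element of the H1 promoters. In windows from 250 bases before to 50 after the start, the octamer stood in 10 of 14 H2B genes (71.4%), 8 of 12 H2A genes (66.7%) and 0 of 4 H1 genes, against 1.77% of 35116 windows of all genes. AAACACA stood in 4 of 4 H1 genes and 0 of 14 H2B genes, against 5.64% of all windows, and CCAAT in 14 of 14 H2B and 4 of 4 H1 genes, against 34.6%. In the other families the octamer stood in 1 of 8 H3 genes and 0 of 9 H4 genes, and CCAAT in 12 of 12 H2A, 8 of 8 H3 and 1 of 9 H4 genes (11.1%). TATAAA stood in 9 of 14 H2B genes (64.3%), against 11.5%. Such matches are letters in a window and no measurement of binding.

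The histone stem-loop was searched in GENCODE 29 transcripts in 1 form, 16 letters with 1 free position, which stood in 17 of 45 matched histone genes. A stem-loop with other letters, or beyond the end of an annotated transcript, was not counted. The 17 therefore do not give the share of these genes with a stem-loop. The form is printed in capitals for H2BC21 and H2AC6, because both transcripts run on past it. It ends at base 465 of a transcript of 2194 bases in H2BC21 and at base 540 of 1654 in H2AC6.
H2BC21: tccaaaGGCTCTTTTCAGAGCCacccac
H2AC6: cccaaaGGCTCTTTTCAGAGCCccccta

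Histone supply is tied to the cell cycle, so the cell cycle lists were read next. Of 20 G2/M and mitosis genes edgeR called none in the interaction, and the median was −0.14. At an unadjusted p under 0.05, 7 were lower (35%, beside 5.85% of all genes) and 1 higher (5%, beside 5.41%). DESeq2 called 5 of the 20 lower, where it called 95 lower over all genes. PLK1, the kinase that drives mitotic entry, had 64.3 and 63.0 CPM in AL_DCF, 96.3 and 94.4 CPM in ST_DCF, 81.1 and 92.1 CPM in AL and 79.1 and 83.0 CPM in ST, with an interaction of −0.68 (adjusted p = 0.122). Its AL_DCF libraries stood below the 6 others. KIF20A, a kinesin of cytokinesis, had 106 and 109 CPM in AL_DCF, 117 and 117 CPM in ST_DCF, 145 and 152 CPM in AL and 112 and 108 CPM in ST, with an interaction of −0.56 (adjusted p = 0.122). Its AL libraries stood above the 6 others. The other 5 were CDC20, AURKA, CCNB1, UBE2C and CCNB2, from −0.52 to −0.30, and the higher one was MKI67 at 0.33. In AL against ST 8 of the 20 rose and 0 fell, where 7.63% of all genes rose. In AL_DCF against ST_DCF 2 rose and 2 fell, near the 9.38% and 11.4% of all genes. The 8 calls numbered 3 without either AL library and 2 without either ST library.

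Genes of G1/S and DNA replication did not share this direction in their counts. Their 20 members had a median of 0.10. The cyclin gene CCNE2, at 0.52 (unadjusted p = 0.003), was the 1 higher at an unadjusted p under 0.05, and 0 were lower. These are 5% and 0%, beside 5.41% and 5.85% of all genes. By the quasi-likelihood test none was called after adjustment.

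The p53 target and apoptosis list leaned the other way. Of 25 genes tested, with a median of 0.26, 24 had an interaction above 0, as did 8898 of all 17445 genes. At an unadjusted p under 0.05, 9 were higher (36%, beside 5.41% of all genes) and 0 lower, with none called by edgeR. DESeq2 called 3 higher, where it called 54 higher over all genes. The 9 numbered 3 without AL_DCF replicate 2, ST replicate 1 or ST replicate 2, 4 without AL replicate 2 and 5 without ST_DCF replicate 1. MDM2, the ubiquitin ligase that restrains p53, had 214 and 265 CPM in AL_DCF, 227 and 267 CPM in ST_DCF, 224 and 216 CPM in AL and 369 and 377 CPM in ST, with an interaction of 0.72 (adjusted p = 0.171). Here the ST libraries stood above the 6 others. BTG2, an antiproliferative gene, had the same arrangement, with 34.8 and 37.5 CPM in AL_DCF, 32.7 and 37.2 CPM in ST_DCF, 36.1 and 35.3 CPM in AL and 51.3 and 51.7 CPM in ST and an interaction of 0.58 (adjusted p = 0.172). In AL against ST 11 of the 25 fell and 0 rose, where 10.3% of all genes fell, and in AL_DCF against ST_DCF 1 fell and 1 rose, where 11.4% fell. The 11 calls numbered 7 without AL replicate 1, 5 without ST replicate 1 and 4 without AL replicate 2 or ST replicate 2.

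CDKN1A, the p53-driven inhibitor of cyclin-dependent kinases, had an interaction of 0.29 (95% interval 0.04 to 0.54). Of the caspase genes CASP4, an inflammatory caspase, had 0.29 (unadjusted p = 0.0389), with 219 and 239.7 CPM in AL_DCF, 241 and 255 CPM in ST_DCF, 203 and 178 CPM in AL and 259.9 and 244 CPM in ST.

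Among genes with a higher AL response under DCF, HDAC9, a class IIa histone deacetylase, came first. Its level was 3.96 and 3.13 CPM in AL_DCF, 9.56 and 9.38 CPM in ST_DCF, 1.25 and 1.40 CPM in AL and 9.91 and 10.9 CPM in ST. The gene fell under the AL stimulus on both sides, to 0.375 of the ST_DCF level with DCF and to 0.128 of the ST level without it, and the interaction was 1.55 (SE 0.252, adjusted p = 0.102). Among 18 deacetylase and sirtuin genes it was the one with an unadjusted p under 0.05, and HDAC1 and HDAC2, the nuclear class I enzymes, lay at 0.04 and −0.05.

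LPP, a LIM protein of focal adhesions, had 55.4 and 59.2 CPM in AL_DCF, 47.4 and 40.1 CPM in ST_DCF, 37.6 and 40.0 CPM in AL and 50.4 and 50.2 CPM in ST, so its AL response was higher with DCF (log2 fold change 0.39, adjusted p = 0.0133) and lower without it (−0.38, adjusted p = 0.0185). The interaction was 0.77 (adjusted p = 0.122). FER, a tyrosine kinase at cell junctions, had the same opposed signs, 0.32 (adjusted p = 0.0196) and −0.31 (adjusted p = 0.0244), with an interaction of 0.63 (adjusted p = 0.122). SYNE1 and SYNE2, the nesprins that tie the nucleus to the cytoskeleton, had interactions of 0.88 (adjusted p = 0.122) and 0.81 (adjusted p = 0.126). REL, a subunit of NF-kappa-B, the transporter gene SLC22A15 and the non-coding RNA LOC105371453 had 0.87, 0.96 and 0.93 (adjusted p = 0.122 each), and the scaffold gene AHNAK2 and the prenyltransferase subunit gene PTAR1 had 0.56 each (adjusted p = 0.126 and 0.131).

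Long transcripts were common on this side. Among 3489 genes in the longest of 5 equal length classes, with a median length of 8.08 kb, 510 genes were higher and 113 lower at an unadjusted p under 0.05, and the median interaction was 0.115. In the shortest class, at 1.23 kb, 80 were higher and 201 lower, with a median of −0.02. With a length trend removed from each library, a setting chosen after seeing the data, the histone median was −1.07 and 3 genes were called, DNAH3, H1-2 and DHRS2. On the higher side the values of several genes were smaller by more than 1.5 times under that setting. LPP had 0.44 in place of 0.77, FER 0.40 in place of 0.63, SYNE1 0.44 in place of 0.88, SYNE2 0.44 in place of 0.81 and AHNAK2 0.24 in place of 0.56. HDAC9 and SLC22A15 had 1.52 and 0.94, in place of 1.55 and 0.96.

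MARCKSL1, which binds membranes and cross-links actin, had 62.5 and 60.5 CPM in AL_DCF, 103 and 107 CPM in ST_DCF, 89.7 and 87.5 CPM in AL and 95 and 99.5 CPM in ST. It fell in AL_DCF against ST_DCF (log2 fold change −0.77, adjusted p = 3.26e-05) and was not called in AL against ST (−0.13, adjusted p = 0.245), with an interaction of −0.63 (adjusted p = 0.11).

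Metabolic targets of the PPAR receptors, nuclear receptors that bind fatty acids and some anti-inflammatory drugs, lay mostly below 0. Of 14 genes 5 were lower (35.7%, beside 5.85% of all genes) and 0 higher at an unadjusted p under 0.05. The median was −0.30, and the 4-group model of edgeR called none. With 1 library left out, the median lay between −0.39 (without AL_DCF replicate 2) and −0.22 (without ST_DCF replicate 1). DESeq2 called 2 lower, where it called 95 lower over all genes. With the replicate number added to the model, edgeR called 1 lower, where it called 8 over all genes. ANGPTL4, a secreted inhibitor of lipoprotein lipase, had 47.8 and 31.3 CPM in AL_DCF, 10.5 and 4.97 CPM in ST_DCF, 73.3 and 64.3 CPM in AL and 3.25 and 3.26 CPM in ST. It rose under the AL stimulus on both sides, by factors of 5.07 with DCF and 21.1 without it, and the interaction was −2.06 (SE 0.402, adjusted p = 0.131). CPT1A, which brings fatty acids into mitochondria, rose by 1.69 and 2.50 times, with an interaction of −0.57 (adjusted p = 0.236). IMPA2, an inositol monophosphatase, had −0.65 (adjusted p = 0.172). PDK4, a kinase that restrains pyruvate dehydrogenase, and ACADVL, an enzyme of fatty acid oxidation, had −1.57 and −0.32 (adjusted p = 0.348 and 0.385).

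The cyclooxygenase genes themselves showed no detected interaction. PTGS2, the inducible enzyme, had 7.50 and 4.66 CPM in AL_DCF, 11.8 and 6.59 CPM in ST_DCF, 3.71 and 3.21 CPM in AL and 7.56 and 7.59 CPM in ST, and its interaction was 0.53 (95% interval −0.32 to 1.38). PTGS1 lay at −0.15 (95% interval −0.55 to 0.25). Downstream, PTGES, which makes prostaglandin E2, had 27.7 and 22.8 CPM in AL_DCF, 90.5 and 87.4 CPM in ST_DCF, 20.1 and 22.8 CPM in AL and 46.1 and 49.8 CPM in ST. It was the gene called in ST_DCF against ST, at 0.89 on the log2 scale (adjusted p = 0.0482). Its interaction was −0.66 (adjusted p = 0.189), with both ST_DCF libraries above the 6 others. SLCO2A1, the prostaglandin importer, had −0.83 (adjusted p = 0.270). PTGIS, the prostacyclin synthase, had −1.52 (adjusted p = 0.345), with ST_DCF libraries of 11.1 and 4.59 CPM that lay far apart. In all, 3 of the 19 tested genes of the list were lower (15.8%, beside 5.85% of all genes) and 0 higher at an unadjusted p under 0.05.

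Secreted acute-phase and antimicrobial genes had the highest median of the lists, 0.69 over 12 genes. At an unadjusted p under 0.05, 3 were higher (25%, beside 5.41% of all genes) and 0 lower. The values rested on single libraries, as the median was 0.27 without ST_DCF replicate 1 and 1.44 without ST_DCF replicate 2. LCN2, an iron-sequestering lipocalin, had 9.57 and 5.76 CPM in AL_DCF, 13.3 and 29 CPM in ST_DCF, 3.26 and 2.95 CPM in AL and 29.1 and 36.9 CPM in ST. It fell on both sides, to 0.363 of ST_DCF with DCF and to 0.0944 of ST without it, and the interaction was 1.94 (SE 0.458, adjusted p = 0.203). The ST_DCF libraries differed by more than a factor of 2 here. RNASE7, an antimicrobial ribonuclease, had 1.04 (adjusted p = 0.305), and S100A8, a subunit of calprotectin, 2.43 (adjusted p = 0.395).

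**Figure D3:**
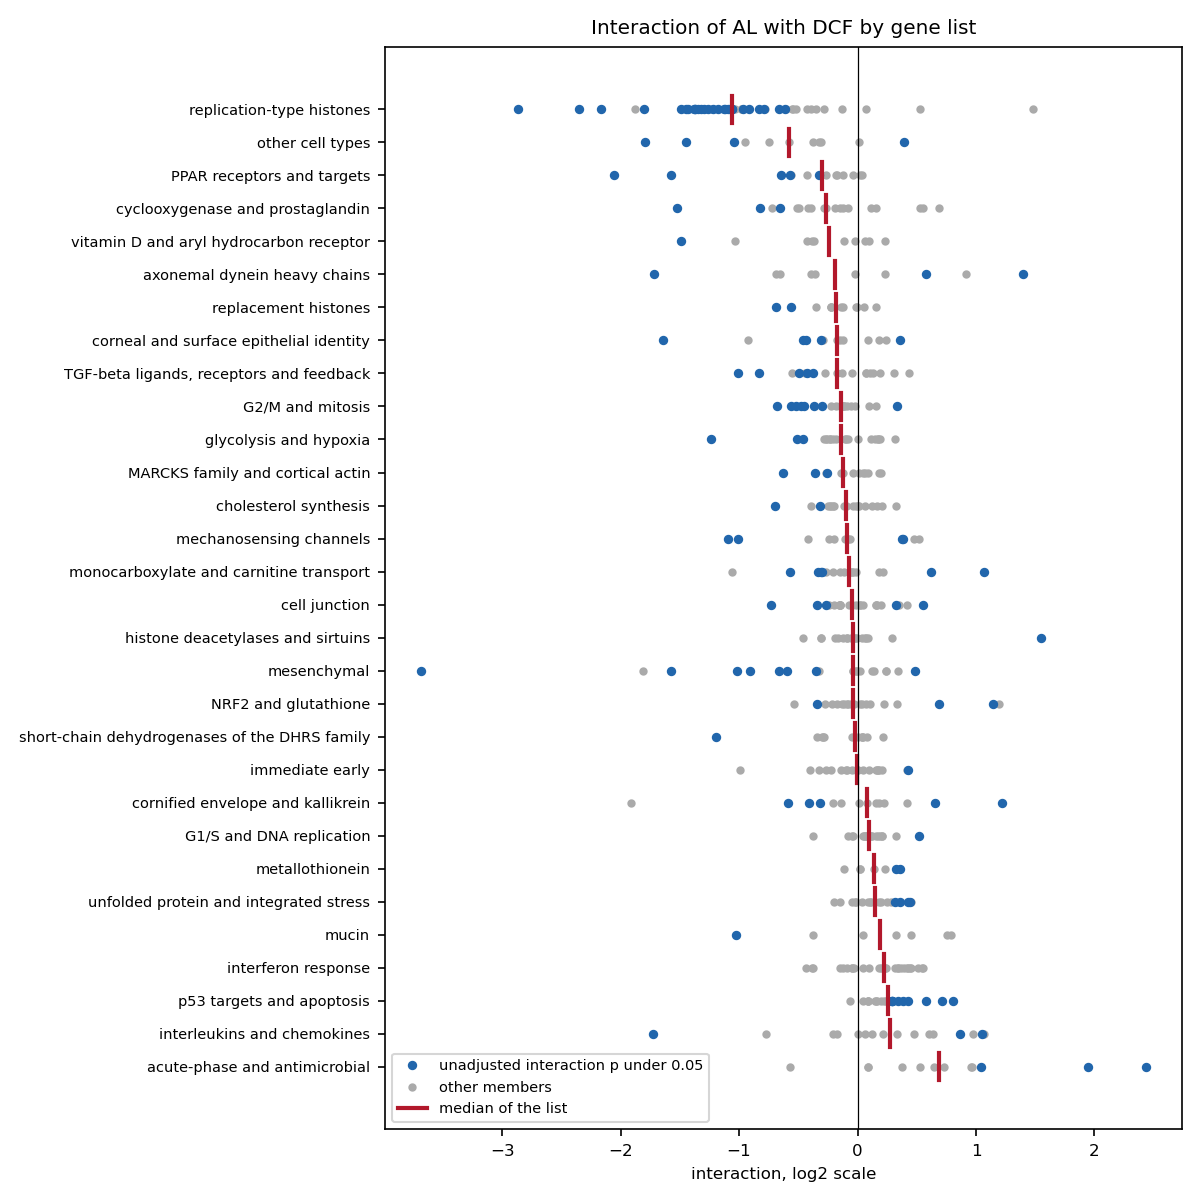
Interaction on the log2 scale (horizontal axis) of each tested member of 30 gene lists (points, blue where the unadjusted p is under 0.05) with the list median in red. Replication-type histones lie lowest with a median of −1.06 and acute-phase and antimicrobial genes highest with 0.69, and list members were chosen with earlier results of these data known.

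Among 24 of the genes that the study discusses, edgeR called none in the interaction. At an unadjusted p under 0.05, 7 were lower (29.2%, beside 5.85% of all genes) and 3 higher (12.5%, beside 5.41%). The higher ones were CXCL2, SLC16A7 and PIEZO2. With the length trend removed they had 1.09, 0.39 and 0.17, in place of 1.05, 0.62 and 0.37. IL6, the inflammatory cytokine, had 56.4 and 35.1 CPM in AL_DCF, 13.3 and 9.26 CPM in ST_DCF, 37.1 and 35.3 CPM in AL and 9.82 and 8.87 CPM in ST. It rose by 4.04 times with DCF and 3.87 times without it, and the interaction of 0.06 had a 95% interval of −0.58 to 0.71, inside a factor of 2 in either direction. OCLN, the tight junction protein occludin, had an interaction of 0.02 (95% interval −0.34 to 0.38), and GSS, the glutathione synthetase, one of 0.10 (95% interval −0.12 to 0.32). MUC16, the large membrane mucin of the ocular surface, had 0.33 (95% interval −0.06 to 0.71). Its transcript length was 48.7 kb, and with the length trend removed its value was −0.19, outside that interval. The intervals hold for the 4-group model without a length term, and they do not show that a dependence on DCF was absent.

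TGFB1, the growth factor of wound healing and fibrosis, had 116 and 110.5 CPM in AL_DCF, 125 and 131 CPM in ST_DCF, 144 and 142 CPM in AL and 120.1 and 121 CPM in ST. The AL libraries stood above the 6 others. Its log2 fold change was −0.18 in AL_DCF over ST_DCF (adjusted p = 0.114) and 0.25 in AL over ST (adjusted p = 0.038), and the interaction was −0.42 (SE 0.104, 95% interval −0.65 to −0.20, unadjusted p = 0.00167, adjusted p = 0.232). Of 19 genes of its list, 5 were lower (26.3%, beside 5.85% of all genes) and 0 higher at an unadjusted p under 0.05. Among the lower ones was TGFBI, an extracellular matrix protein of the cornea, at −0.49 (adjusted p = 0.236). The other members were the ligand gene TGFB2 at −1.01 and LTBP2 and LTBP3, of the latent TGF-beta binding protein family, at −0.83 and −0.37.

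MUC1, a membrane mucin, had 11.7 and 10.7 CPM in AL_DCF, 20.6 and 18.7 CPM in ST_DCF, 17.6 and 18.9 CPM in AL and 12.7 and 18.6 CPM in ST, with an interaction of −1.03 (adjusted p = 0.171). Its ST libraries lay further apart than those of any other group. CXCL2, a neutrophil chemokine, had 1.05 (adjusted p = 0.385) and PIEZO2, a mechanically gated ion channel, 0.37 (adjusted p = 0.38). CCL5, a lymphocyte chemokine, had −1.73 (adjusted p = 0.270), with 4.41 and 10.7 CPM in AL_DCF, 9.92 and 6.44 CPM in ST_DCF, 8.83 and 6.73 CPM in AL and 2.67 and 2.44 CPM in ST, so that both drug groups spread over the AL levels.

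For the collagen genes COL3A1 and COL1A2 and the metalloproteinase gene MMP2, AL replicate 2 stood apart. COL3A1, a fibrillar collagen, had 3.07 and 1.66 CPM in AL_DCF, 0.964 and 0.324 CPM in ST_DCF, 3.29 and 21.7 CPM in AL and 0.172 and 0.366 CPM in ST, and its interaction of −3.69 had a 95% interval of −6.55 to −0.82 (adjusted p = 0.358). COL1A2 had 0.335 and 6.07 CPM in AL, and MMP2 had 15.8 and 27.1 CPM in AL. MMP17, another metalloproteinase gene, had 2.89 and 1.97 CPM in AL_DCF, 4.04 and 2.29 CPM in ST_DCF, 4.67 and 4.59 CPM in AL and 1.81 and 2.26 CPM in ST, and its interaction was −1.58 (adjusted p = 0.24). Its AL libraries stood above the 6 others. COL5A3, a fibrillar collagen gene, did not have the split between AL libraries either, with 66.2 and 79.0 CPM in AL_DCF, 38.4 and 29.9 CPM in ST_DCF, 119.5 and 103 CPM in AL and 32.7 and 33.6 CPM in ST, and its interaction was −0.66 (adjusted p = 0.252). Of 20 genes of the mesenchymal list 7 were lower (35%, beside 5.85% of all genes) and 1 higher (5%, beside 5.41%) at an unadjusted p under 0.05. The higher one was the transcription factor gene ZEB1 at 0.49. COL3A1, COL5A3, MMP2 and MMP17 are among the lower ones here and also among the lower genes that the study discusses. The 2 shares thus rest in part on the same genes. By edgeR none of the 20 was called, and DESeq2 called 2 lower and 0 higher, where it called 95 lower over all genes. The 7 numbered 2 without AL replicate 2, 3 without ST_DCF replicate 1 and 4 without AL_DCF replicate 2 or ST replicate 1.

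**Figure D4:**
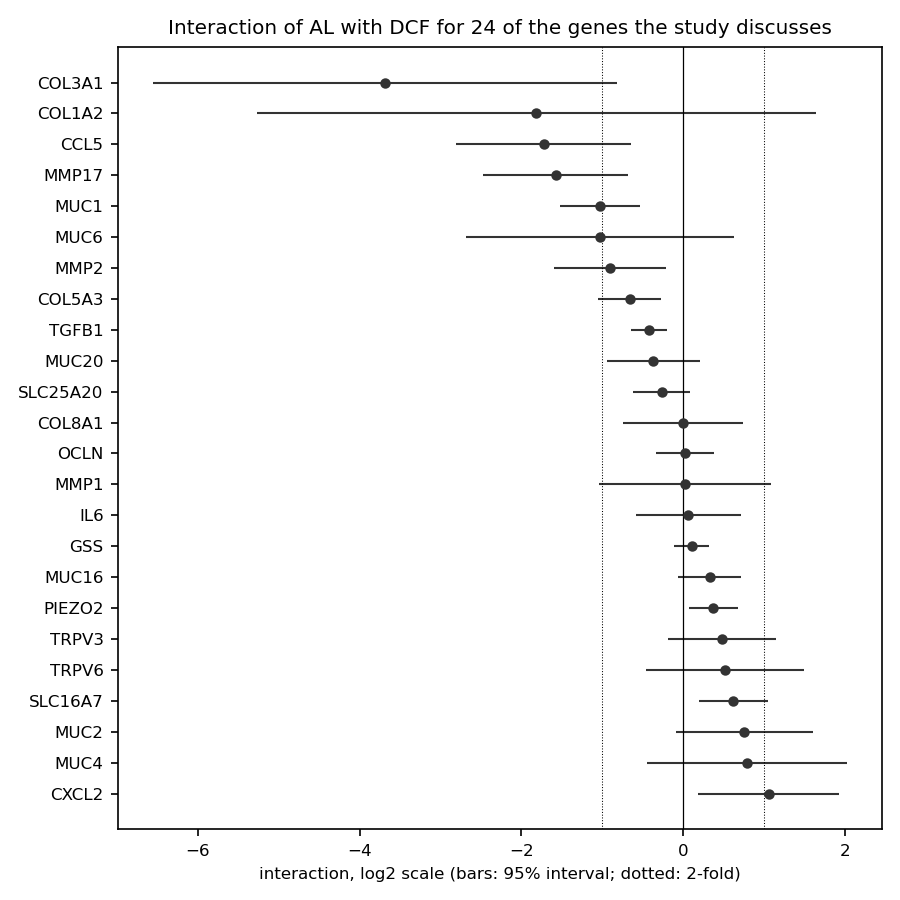
Interaction on the log2 scale with its 95% interval (horizontal axis) for 24 of the genes the study discusses, with dotted lines at a factor of 2. IL6, OCLN and GSS sit near 0 at 0.06, 0.02 and 0.10, and COL3A1 at −3.69 lies lowest, with an interval of −6.55 to −0.82.

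Across all genes the 2 AL responses, which share no library, ran largely together. Over 13460 genes with an average log2 CPM above 1, Pearson's r between the log2 fold change of AL_DCF over ST_DCF and that of AL over ST was 0.760 (Spearman's rho 0.656), and over all 17445 genes it was 0.616 (0.560), a description across genes, which are not independent replicates. AL_DCF against ST_DCF called 3619 genes and AL against ST 3124, and 1860 were called in both, 51.4% of the first and 59.5% of the second. Of these 1860, 1847 had the same sign and 13 opposite signs. AL against ST numbered 1495 without AL replicate 1, 1406 without AL replicate 2, 1450 without ST replicate 1 and 1392 without ST replicate 2, and AL_DCF against ST_DCF 2357 without AL_DCF replicate 2. A call in one response and not in the other is no interaction in itself. Of 1264 genes called in AL against ST alone, 472 had an unadjusted interaction p under 0.05 and 2 were called in the interaction. Of 1759 called in AL_DCF against ST_DCF alone, the counts were 558 and 0. Over all 17445 genes, 1963 (11.3%) had such an unadjusted p. Both sets were picked on the 2 responses that make up the interaction, and this choice itself favours small interaction p-values. No conclusion on DCF is drawn from these counts.

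**Figure D5:**
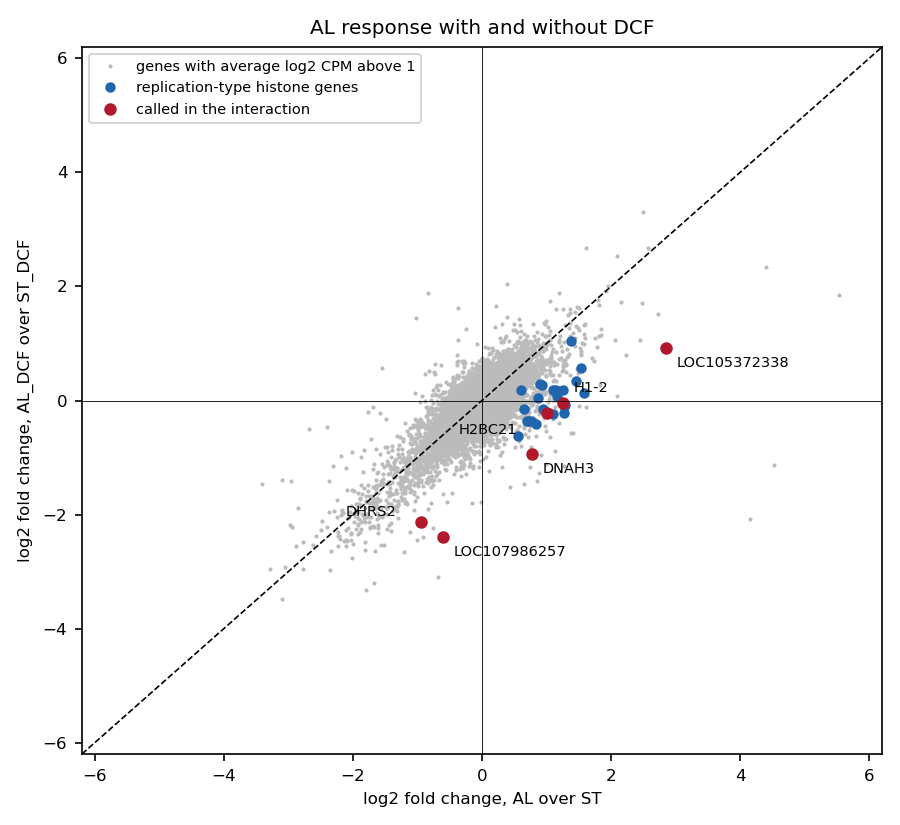
Log2 fold change of AL_DCF over ST_DCF (vertical axis) against that of AL over ST (horizontal axis) for 13460 genes with an average log2 CPM above 1 (grey), with the dashed line where both are equal. Replication-type histones (blue) lie right of 0 and below the dashed line, and the 6 called genes (red, named) lie below it too.

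The precision of a single gene sets what could have been seen. The median standard error of the interaction was 0.179, and 0.152 among genes with an average log2 CPM above 1. Among 4883 genes called in either AL response, the 95% interval of the interaction lay inside a factor of 2 in either direction for 3741 (76.6%), and inside a factor of 1.5 for 2196 (45.0%). For the rest a dependence on DCF of that size was not excluded by these libraries.

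Genes with an unadjusted interaction p under 0.001 numbered 91, of which 52 lay below 0 and 39 above. Below 0, the most common arrangement was a call in AL against ST as higher with no call in AL_DCF against ST_DCF, in 23 genes, followed by lower in AL_DCF against ST_DCF with no call in AL against ST, in 11 genes. In 9 genes, DNAH3 among them, the 2 responses were called with opposite signs. Above 0, 19 genes were called lower in AL against ST with no call in AL_DCF against ST_DCF, and 4 had opposite calls, LPP and FER among them. The 91 were picked on the difference of the 2 responses by which they are sorted here. That choice shapes the arrangements, and no conclusion on DCF is drawn from these counts.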

How the data were processed

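RNA libraries of HCE-T cells in 4 conditions, 2 each, were analysed from a deposited table. The libraries came from a stranded mRNA kit, and the submitters' processing notes name Trimmomatic 0.38, HISAT2 2.1.0, StringTie 2.1.3b and the build GRCh38. The deposited read counts are not normalized. FPKM values were scaled by the authors to transcript length and mapped reads, and the TPM values by the authors per library total. The deposited log2 values are TMM-normalized by the authors, and their fold changes and p-values were not used. The study describes replicates as independent biological samples.

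Genes were kept with filterByExpr (17445 of 18430), scaled with TMM and fitted with edgeR 4.0.16 (R 4.3.3) in one quasi-likelihood model of 4 groups with 4 residual degrees of freedom. The Benjamini-Hochberg adjustment ran across the whole table of tested genes. Standard errors and 95% intervals come from the same fit. Totals of 32880479 to 46369412 counts leave counting error small for genes above a few CPM. Named genes were every called gene, the 10 smallest p-values in each direction above a log2 CPM of 1, 24 of the genes the study discusses and up to 2 per list. Members and lists were chosen with earlier results of these data known, and the histone lists and further list members, such as PTGS1 and BTG2, after their values were seen. Positions and promoters are from RefSeq (GRCh38.p14). The fit was also run on simulated counts with 1 dispersion per gene for all groups. Such counts do not test the unequal spread of the groups here. Alternatives were DESeq2 1.42.0, limma 3.58.1 on log2 FPKM and voom, other scalings, filters and thresholds, thinning, a replicate block, a removed length trend and leaving out each library.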

Additional observations from a re-analysis of the deposited data

Results flagged for a closer look

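The difference between the AL response with DCF and the AL response without it passed the interaction test of edgeR's quasi-likelihood fit for 6 genes, and each is given with its value on the log2 scale. These were LOC105372338 at −1.94, LOC107986257 at −1.79, DNAH3 at −1.71, H1-2 at −1.30, H2BC21 at −1.22 and DHRS2 at −1.19. Over 19 other settings, DNAH3 was called in 15, H1-2 and DHRS2 in 14 each, H2BC21 and LOC105372338 in 8 each and LOC107986257 in 7. All 6 kept a value below 0 in each of those 19 settings.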

How the results depend on the processing

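The interaction, with 6 calls, gave 149 calls with DESeq2, 3 with no filter, 3 with limma-voom, 3 with the length trend removed (chosen after seeing the data), 0 with limma on FPKM after adding 1 or 0.1 before the log2 (1061 lower and 650 higher, and 1065 lower and 631 higher, at an unadjusted p under 0.05) and 420 at an unadjusted p under 0.05 with a fold of 2. Leaving out 1 library gave 0 to 189 calls for the interaction, 2357 to 3577 for AL_DCF against ST_DCF and 1392 to 3750 for AL against ST. With the fold of 2 and an unadjusted p, AL_DCF against ST_DCF gave 1154 calls and AL against ST 1094. No shift shared by replicate number was detected, as deviations from the group means correlated between groups from −0.102 to 0.0985. This does not show how the libraries were handled together. A replicate block gave 8, 3348 and 2915 calls in the 3 comparisons. Over 88 named genes no direction turned for a called value, and 1553 of their values under other settings stayed on their side of the threshold, 67 passed it and 48 lost it. The 48 losses fall on the 6 called genes, since the other named genes had no call to lose. With 2 libraries per group, an omitted library leaves a lone one assumed to vary like the others. Yet the mean chi-square per gene between libraries was 24.1 in AL_DCF and 24.3 in ST_DCF against 8.93 in AL and 5.46 in ST. Depth limits genes under about 1 CPM.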
